A study of Mus musculus with 6 samples.

Results

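The mevalonate enzymes are described here from HMG-CoA synthase to squalene synthase, in mouse multiple myeloma cells with and without insulin-like growth factor 1 (IGF-1). The members were 7 genes, Hmgcs1, Mvk, Pmvk, Mvd, Idi1, Fdps and Fdft1. They were found by gene symbol in the platform annotation, which gave 17 probe sets of the 22690 on the array, and 7 of 12393 gene symbols. A probe set is the group of short probes that together measure 1 transcript on this type of Affymetrix array. The rule names genes and uses no measured value, but the set was proposed with earlier results of these data known.

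Cells labelled as malignant plasma cells of multiple myeloma (bone marrow) were kept for 12 h in medium without serum. In the IGF-1 group the medium held 100 ng/ml IGF-1, a growth and survival factor for plasma cells, and in the control group it held none. Each group had 3 arrays, so all 6 samples shared the lack of serum and differed in the added IGF-1. No strain, cell line or number of animals is named in the labels used here. Nor do they say whether replicates were separate cultures, so every p-value measures only how these samples spread, which may be technical variation.

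The mevalonate pathway turns acetyl-CoA into the building blocks of sterols and isoprenoids. HMG-CoA synthase condenses acetoacetyl-CoA with acetyl-CoA, HMG-CoA reductase makes mevalonate, 2 kinases and a decarboxylase turn it into isopentenyl diphosphate, an isomerase supplies its allylic partner, and the prenyl chain is then extended to farnesyl diphosphate. Farnesyl diphosphate is the branch point: squalene synthase commits it to cholesterol, while other enzymes use it for protein prenylation, dolichol and ubiquinone. Transcription of these genes is known to be driven by SREBP2, a membrane-bound factor released when sterols in the endoplasmic reticulum are low. In plasma cells, which carry a large endoplasmic reticulum and secrete antibody, the pathway supplies membrane sterol and the dolichol that carries N-glycans. HMG-CoA reductase was not analysed here.

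Signals were the authors' MAS5 intensities, each array already scaled to a common trimmed mean (150 in each of the 6 arrays, leaving out 2% at each end). Array medians were 50.03 to 55.44 in the IGF-1 group and 52.86 to 55.2 in the control group, and 3 arrays a group limit the precision. Log2 signals of the tested probe sets correlated at 0.978 to 0.984 between arrays of 1 group and at 0.956 to 0.965 between groups. As a check of RNA integrity, the 3′ probe set signal divided by the 5′ one was 0.748 to 0.805 in IGF-1 arrays and 0.751 to 0.843 in control arrays for Gapdh, and 1.16 to 1.23 against 1.17 to 1.31 for actin. All 7 plasma cell markers that the array annotation holds (of 9 listed) lay above the signal filter. Their summed signal was 10440 to 10880 in IGF-1 arrays and 11290 to 12220 in control arrays. Beside 8.05% of all genes tested, 2 of the 7 markers were called lower. These were Slamf7 (log2 difference -0.62 ± 0.13 SE, adjusted p = 0.013 in limma) and Tnfrsf17, the plasma cell receptor BCMA (-0.51 ± 0.10, adjusted p = 0.008), and the other 5 ran from -0.39 (Prdm1) to 0.14 (Sdc1) without passing.

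Transcripts of the mevalonate enzymes were higher with IGF-1 at 5 of the 7 genes. Hmgcs1, Idi1, Fdps, Mvd and Fdft1 rose 4.11-, 3.24-, 2.72-, 2.01- and 1.96-fold in their brightest probe sets. These folds come from mean log2 signals after a pseudocount of 15.6 was added. The plain ratios of mean signals were 4.21, 3.48, 2.77, 2.18 and 2.05. Pmvk, the phosphomevalonate kinase, did not pass the test, and Mvk, the mevalonate kinase, was too dim to be tested. Of the 17 probe sets, 12 exceeded the filter on low signals, and 11 of these 12 were higher with an adjusted p below 0.05 in limma, 0 were lower and 1 did not pass. Over all 11313 probe sets tested, 6.82% were called higher and 8.28% lower. By gene, 5 of 6 tested members were called higher, 0 were called lower, and over the 6895 genes tested 7.05% were called higher and 8.05% lower. The mean signal of each of the 12 tested probe sets lay above the filter value of 53.6 in the control arrays alone, so none was admitted through its IGF-1 signal. The median log2 difference over the 12 probe sets was 1.47, beside -0.01 over all probe sets tested.

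**Figure D1:**
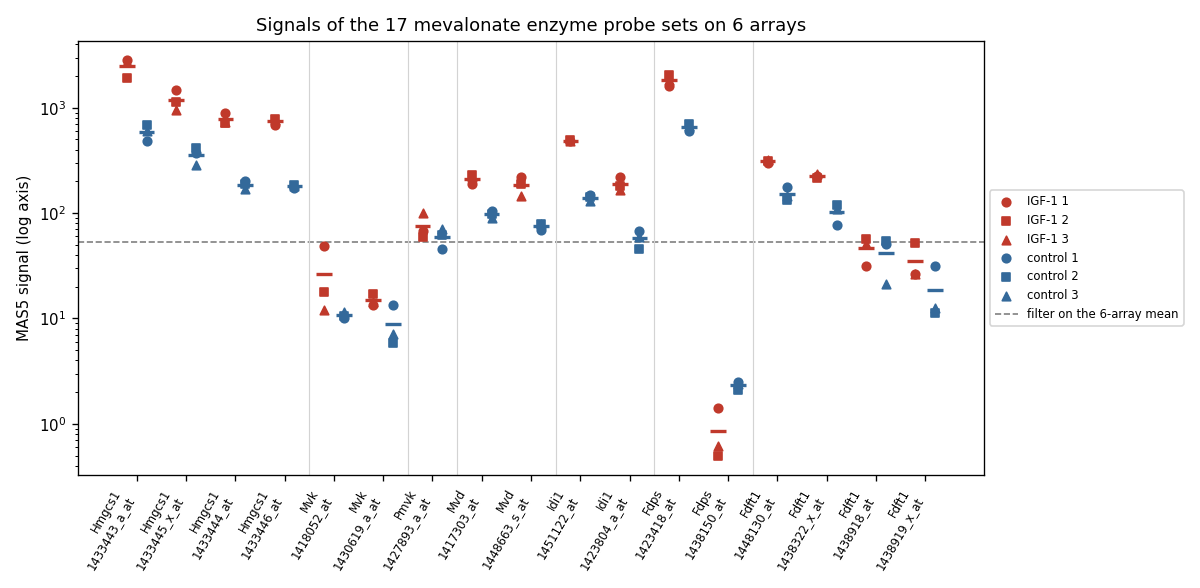
MAS5 signal (log axis) of the 17 member probe sets, in pathway order, on the 3 IGF-1 arrays (left of each pair, red) and the 3 control arrays (right, blue); bars are group means and the dashed line is the filter on the mean of 6 arrays. In the 11 probe sets that passed the test every IGF-1 array lies above every control array, while the 5 probe sets whose 6-array mean falls below the dashed line, among them both of Mvk, were not tested.

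All 11 called probe sets had every IGF-1 array above every control array. Over all tested probe sets 16.1% had that separation. Without the filter, 13 of the 17 member probe sets had it, beside 11.1% of all 22626 probe sets that are no array controls. The exact two-sided permutation test over arrays gave p = 0.1 for each of the 11, the smallest p that 3 against 3 arrays can reach. Ranked by log2 difference, all 11 were among the 50 highest of the 11313 probe sets.

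Markers of other cell types were measured beside these values. Their calls stand beside 8.05% called lower and 7.05% called higher over all genes tested. The 8 neutrophil markers, of which 1 was called lower and 0 higher, summed to 21250 to 23460 in IGF-1 arrays and 23110 to 27310 in control arrays. The 8 macrophage and monocyte markers, of which 7 were tested, 2 called lower and 1 higher, summed to 7081 to 8596 in IGF-1 arrays and 7708 to 9315 in control arrays. The 5 T cell markers measured (of 6 listed) all lay below the filter, at sums of 92.3 to 112 in IGF-1 arrays and 91.7 to 131 in control arrays, and 2 of the 4 erythroid markers measured did so, with sums of 231 to 341 in IGF-1 arrays and 228 to 369 in control arrays. No marker was at 0. The neutrophil marker called lower was Ltf, a granule protein, with a log2 difference of -0.60 ± 0.13 (SE). Of the macrophage and monocyte markers, Csf1r (-1.02 ± 0.18) and Cd14 (-0.82 ± 0.24) were called lower and Cd68 (0.41 ± 0.09) higher, and the other 4 tested ran from -0.34 to -0.07. The median log2 differences of the plasma cell, neutrophil and macrophage lists were -0.20, -0.23 and -0.22 with the deposited scaling, and 0.09, 0.05 and 0.02 when arrays were scaled to the spiked hybridization controls. The part of these cell types in the results below was not tested. In bulk RNA, fewer cells of a type and less RNA per cell cannot be told apart.

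Promoter sequences are shown for 4 members whose signals are set side by side below, 3 that rose (Hmgcs1, Mvd, Idi1) and the dim Mvk, because SREBP2 is known to act on such promoters together with the factors NF-Y and Sp1. They are the 250 bases before the transcript start that the promoter table from RefSeq uses, build GRCm38.p6, 5′ to 3′ on the gene's strand. For Mvk that start differs from the start in the gene table, so the last 5 bases of its window lie within the gene as listed there. Capitals mark matches, on either strand, to the NF-Y box CCAAT, the Sp1 GC box GGGCGG or the sterol element core CACNCCAC, 3 motifs that share no position in these windows.
Hmgcs1, chr13:119690101-119690350, plus strand: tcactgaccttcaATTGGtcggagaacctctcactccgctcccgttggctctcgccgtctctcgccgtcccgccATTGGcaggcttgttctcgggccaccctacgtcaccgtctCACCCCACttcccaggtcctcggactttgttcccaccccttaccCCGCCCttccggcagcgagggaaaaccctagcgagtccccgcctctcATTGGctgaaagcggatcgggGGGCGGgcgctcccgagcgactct
Mvk, chr5:114444019-114444268, plus strand: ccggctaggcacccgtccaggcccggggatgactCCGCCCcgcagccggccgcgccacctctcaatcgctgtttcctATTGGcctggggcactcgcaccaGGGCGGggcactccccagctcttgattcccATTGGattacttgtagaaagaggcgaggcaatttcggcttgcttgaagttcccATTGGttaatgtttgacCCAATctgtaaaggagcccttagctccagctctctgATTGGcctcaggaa
Mvd, chr8:122443423-122443672, minus strand: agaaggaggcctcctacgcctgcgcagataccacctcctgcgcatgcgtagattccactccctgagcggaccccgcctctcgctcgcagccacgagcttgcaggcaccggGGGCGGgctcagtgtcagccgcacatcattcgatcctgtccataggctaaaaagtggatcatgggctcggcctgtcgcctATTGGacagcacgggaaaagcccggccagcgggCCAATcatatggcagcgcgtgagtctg
Idi1, chr13:8885356-8885605, plus strand: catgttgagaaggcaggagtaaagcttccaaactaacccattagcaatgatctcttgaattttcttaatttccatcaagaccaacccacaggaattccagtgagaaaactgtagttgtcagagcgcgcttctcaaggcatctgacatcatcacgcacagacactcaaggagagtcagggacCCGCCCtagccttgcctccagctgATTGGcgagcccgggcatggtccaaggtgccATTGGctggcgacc

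Hmgcs1 held 3 NF-Y boxes, 2 GC boxes and 1 sterol element core, the last of these 136 to 129 bases before the start. The other 3 promoters held no match to that core. Mvk had 5 NF-Y boxes and 2 GC boxes, while Mvd and Idi1 each had 2 NF-Y boxes and 1 GC box. Pmvk has 2 entries in the table, with 1 NF-Y box in the first and no match in the second. Of the 32851 promoter windows of the same length in RefSeq, 33.8% held at least 1 NF-Y box, 10.1% held 2 or more, 32.7% held a GC box and 5.29% the sterol element core. Mvk, whose change was not tested for low signal, had the most NF-Y boxes of these promoters. A link between motif counts and the differences was not tested. No entry for Fdps or Fdft1 was found in the promoter table. A match describes the letters in this window and not binding.

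**Figure D2:**
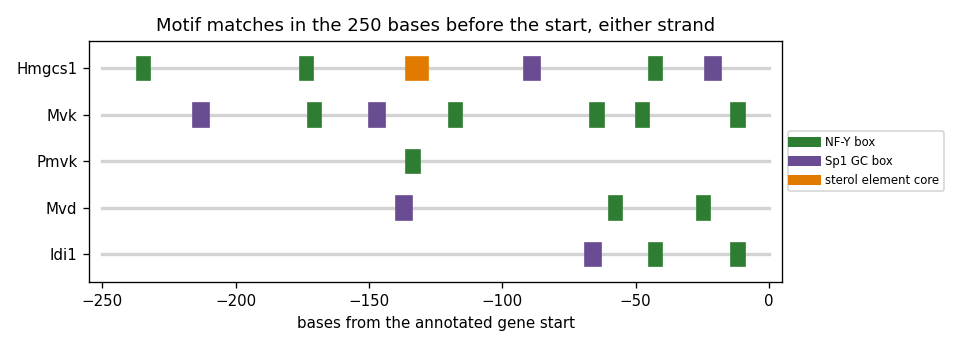
Positions of motif matches in the 250 bases before the annotated start of 5 members (first entry for Pmvk), in bases from the start; each box is 1 match on either strand. Hmgcs1 alone among the 5 has a sterol element core in this window, and Mvk has the most NF-Y boxes with 5.

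Hmgcs1 encodes the cytosolic HMG-CoA synthase at the entry to the pathway and showed the largest difference of the members. Its brightest probe set (1433443_a_at) gave signals of 2819, 1935 and 2707 on the IGF-1 arrays, against 489, 685 and 597 on the control arrays. The lowest IGF-1 array was thus well above the highest control array. The log2 difference was 2.04 ± 0.16 (SE, adjusted p = 6.5e-05), which ranked 2 among the rises of all tested probe sets. The same gene was measured by 3 more probe sets, and all 4 were designed from 1 sequence record, so they are not independent measurements.

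The dimmer Hmgcs1 probe sets gave the same direction. Probe set 1433444_at read 885, 715 and 735 on IGF-1 arrays and 201, 189 and 168 on control arrays, a log2 difference of 1.98 ± 0.11 (adjusted p = 7.3e-06). Probe set 1433446_at read 690, 784 and 769 on IGF-1 arrays and 172, 186 and 181 on control arrays, a log2 difference of 1.96 ± 0.10 (adjusted p = 6.9e-06). Its control arrays were the most even of the called probe sets, with a coefficient of variation of 3.97%. The fourth, 1433445_x_at, read 1463, 1132 and 944 on IGF-1 arrays and 370, 418 and 284 on control arrays, with a smaller log2 difference of 1.67 ± 0.17 (adjusted p = 0.00034). Its suffix marks a design in which some probes may hybridise to other transcripts. The 95% intervals of the 4 differences overlapped, from 1.30 to 2.05 for this probe set and from 1.69 to 2.39 for the brightest.

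Mvk, the kinase that phosphorylates mevalonate, stayed near the bottom of the signal range. Probe set 1418052_at read 48.8, 18.0 and 12.1 on IGF-1 arrays and 10.1, 10.5 and 11.6 on control arrays. The groups did not overlap, but IGF-1 1 stood far above the other two IGF-1 arrays, and IGF-1 3 was close to the highest control array. Probe set 1430619_a_at read 13.6, 17.0 and 14.4 on IGF-1 arrays and 13.6, 5.80 and 7.06 on control arrays, so that IGF-1 1 and control 1 were nearly level. Both probe sets fell below the filter and were not tested. Fitted without a filter, their log2 differences were 0.57 and 0.34 with adjusted p-values of 0.35 and 0.27, so a change of Mvk was not detectable at these signals.

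Pmvk, the next kinase, was measured by 1 probe set (1427893_a_at) just above the filter. It read 67.3, 59.6 and 101 on IGF-1 arrays and 45.7, 62.1 and 69.9 on control arrays. The groups overlapped: IGF-1 2 lay below control 2 and control 3, and IGF-1 3 was the highest of the 6. The log2 difference was 0.28 ± 0.20 (adjusted p = 0.38) with a 95% interval of -0.15 to 0.71. That interval ends below the fitted differences of the 5 members that rose. Without IGF-1 3 the difference was 0.09.

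Mvd, the diphosphomevalonate decarboxylase that yields isopentenyl diphosphate, rose in both of its probe sets. Probe set 1417303_at read 189, 229 and 220 on IGF-1 arrays and 105, 97.4 and 90.1 on control arrays, a log2 difference of 1.01 ± 0.12 (adjusted p = 0.0007). Probe set 1448663_s_at read 219, 188 and 147 on IGF-1 arrays and 68.7, 78.6 and 79.0 on control arrays, a log2 difference of 1.12 ± 0.15 (adjusted p = 0.0013). Every IGF-1 array exceeded every control array in both. IGF-1 1 was the lowest of its group in the first probe set and the highest in the second, although both were designed from 1 sequence record.

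Idi1, the isomerase that interconverts isopentenyl and dimethylallyl diphosphate, had the most even IGF-1 arrays of the called probe sets. Its brighter probe set, 1451122_at, read 480, 495 and 487 on IGF-1 arrays and 149, 142 and 129 on control arrays. The coefficient of variation over the IGF-1 arrays was 1.51%, and the log2 difference was 1.69 ± 0.10 (adjusted p = 7.3e-06). The dimmer probe set, 1423804_a_at, read 220, 183 and 165 on IGF-1 arrays and 68.4, 45.2 and 59.4 on control arrays, a log2 difference of 1.49 ± 0.15 (adjusted p = 0.00036). Both come from the same sequence record, and in neither did the groups overlap.

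Fdps makes farnesyl diphosphate and is the enzyme that nitrogen-containing bisphosphonates, drugs given against myeloma bone disease, inhibit. Its bright probe set (1423418_at) read 1604, 2040 and 1837 on IGF-1 arrays and 603, 696 and 678 on control arrays. All 3 IGF-1 arrays stood far above all 3 control arrays. The log2 difference was 1.45 ± 0.11 (adjusted p = 5.1e-05). The other probe set of Fdps (1438150_at) gave 1.42, 0.498 and 0.618 on IGF-1 arrays and 2.51, 2.09 and 2.41 on control arrays. These are among the lowest signals of the members and far under the filter, and the IGF-1 arrays were the lower ones. It was not tested with the filter and had an adjusted p of 0.36 without it, so the gene's result rests on 1 probe set.

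Fdft1, squalene synthase, joins a pair of farnesyl diphosphate molecules and takes them into sterol synthesis. Probe set 1448130_at read 297, 312 and 320 on IGF-1 arrays and 175, 133 and 144 on control arrays, a log2 difference of 0.97 ± 0.12 (adjusted p = 0.00081). Probe set 1438322_x_at read 223, 218 and 234 on IGF-1 arrays and 77.8, 120 and 109 on control arrays, a log2 difference of 1.05 ± 0.14 (adjusted p = 0.0016). In both, the IGF-1 arrays were close together and lay above all control arrays. The gene's other two probe sets were below the filter and overlapped between groups. Of these, 1438918_at averaged 46.5 ± 13.1 in IGF-1 arrays and 42.3 ± 18.4 in control arrays, and 1438919_x_at averaged 35.2 ± 15.0 in IGF-1 arrays and 18.6 ± 11.4 in control arrays (SD, n = 3 each).

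**Figure D3:**
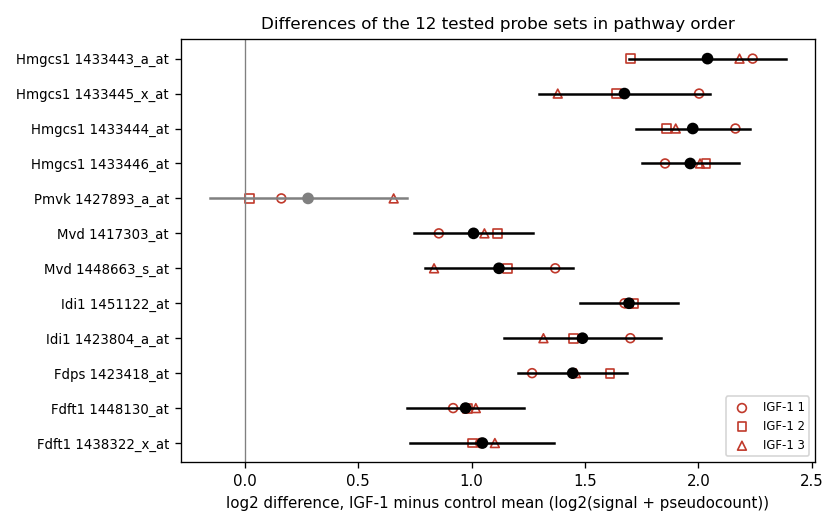
Log2 difference (IGF-1 minus control, log2(signal + pseudocount)) of the 12 tested probe sets from the entry of the pathway at the top to squalene synthase at the bottom; filled points are limma estimates with 95% intervals, open symbols the 3 IGF-1 arrays minus the control mean, and grey marks the probe set that did not pass. The Hmgcs1 probe sets lie at 1.67 to 2.04, those of Idi1 and Fdps at 1.45 to 1.69, those of Mvd and Fdft1 at 0.97 to 1.12, and Pmvk at 0.28.

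In their brightest probe sets, the fitted log2 differences of the 5 genes ran from 0.97 (Fdft1) to 2.04 (Hmgcs1). Mvd and Fdft1 were the dimmest of the 5, and the pseudocount understates changes of dim probe sets. With a pseudocount of 1 they stood at 1.11 and 1.04, against 1.47 for Fdps, 1.79 for Idi1 and 2.07 for Hmgcs1. To compare the 5 genes within each array, the log2 ratio of the brightest probe sets was taken for all 10 pairs. This comparison was chosen after the differences were seen. In 6 pairs the IGF-1 arrays did not overlap the control arrays, and these were the 6 that set Hmgcs1, Idi1 or Fdps against Mvd or Fdft1. Among all pairs of genes called higher, 24.1% did not overlap. The widest gap was between Hmgcs1 and Fdft1, whose log2 ratio was 2.57 to 3.18 in IGF-1 arrays and 1.40 to 2.24 in control arrays, higher by 1.07. The narrowest was between Mvd and Fdft1, whose ratio differed by 0.04, with overlapping groups. In the remaining 3 pairs, among Hmgcs1, Idi1 and Fdps, the groups overlapped, and the ratios differed by 0.25 to 0.59. Each exact permutation p was at or above 0.1, the smallest possible (0.17 after Benjamini-Hochberg adjustment over the 10 pairs), so no pair could pass 0.05 in this permutation test.

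No IGF-1 array carried the rise alone. The median over the 5 genes of the deviation from the control mean (log2) was 1.27 on IGF-1 1, 1.61 on IGF-1 2 and 1.46 on IGF-1 3. On IGF-1 1 and IGF-1 3 Hmgcs1 stood highest, at 2.24 and 2.18, and on IGF-1 2 Idi1 did, at 1.72. Over the control arrays the same deviations ran from -0.25 to 0.22, with Hmgcs1 at both ends. The 11 called probe sets kept their calls with each of the 6 arrays left out in turn, the highest adjusted p being 0.0086.

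**Figure D4:**
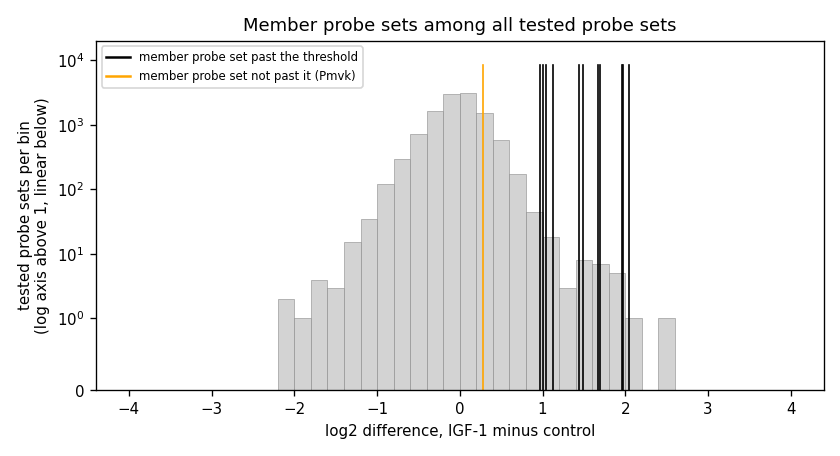
Histogram of the log2 difference (IGF-1 minus control) of all 11313 tested probe sets (grey; vertical axis logarithmic above 1), with the 12 tested member probe sets as vertical lines. The 11 that passed (black) lie in the right tail, from 0.97 to 2.04, and the Pmvk probe set (orange) lies at 0.28 within the bulk.

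The scale of the arrays bears on every difference, since MAS5 scaling takes the overall signal as equal. When arrays were instead scaled to the 18 spiked hybridization controls, the median log2 difference of all probe sets moved by 0.26, and 2750 probe sets were called higher and 246 lower, against 772 higher and 937 lower with the deposited scaling. Relative to the median of that setting, Hmgcs1 stood at 2.07, Idi1 at 1.71, Fdps at 1.48, Mvd at 1.02, Fdft1 at 0.99 and Pmvk at 0.26, in their brightest probe sets.

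Further enzymes of the isoprenoid branches were counted from a list that holds 18 genes, of which 9 were on the array and 8 were tested. Of the 8, 3 rose, 0 fell and 5 did not pass, while 7.05% of all genes tested were called higher. The median log2 difference of the 8 was 0.11 (0.38 when scaled to the hybridization controls) beside -0.01 over all genes. The 3 of this list that rose were Fntb, the beta subunit of farnesyltransferase (0.63 ± 0.15, adjusted p = 0.017), Nus1, a subunit of the dolichol-forming cis-prenyltransferase (0.40 ± 0.10, adjusted p = 0.024), and Rabggta, a subunit of the enzyme that prenylates Rab proteins (0.28 ± 0.08, adjusted p = 0.045). Each of these is 1 subunit of its enzyme, and the partner subunits in the list did not pass in limma. These partners were Fnta (0.03 ± 0.10, adjusted p = 0.89), Dhdds (0.03 ± 0.12, adjusted p = 0.88) and Rabggtb (-0.05 ± 0.11, adjusted p = 0.82). The 3 higher calls were less stable with fewer arrays. When IGF-1 2 or control 2 was left out, 0 of the 8 genes were called, and 1 when IGF-1 1, IGF-1 3 or control 3 was. Higher calls over all probe sets also fell, from 772 to 404 without IGF-1 2 and to 435 without control 2. Ggps1 makes geranylgeranyl diphosphate from the product of Fdps. The brightest of its 4 probe sets averaged 79.4 ± 14.0 in IGF-1 arrays and 97.2 ± 10.3 in control arrays (log2 difference -0.26 ± 0.15, adjusted p = 0.28). Its other probe sets are not described here.

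Beyond squalene, 7 of 10 tested late sterol enzymes rose and 0 fell, with a median of 0.90 (1.17 when scaled to the hybridization controls). The 6 largest rises were Msmo1 (2.51), Dhcr7 and Cyp51 (1.77 each), Sqle (1.59), Nsdhl (1.07) and Lss (0.73), in log2 differences. Over all genes tested, 7.05% were called higher and 8.05% lower. Of 11 tested genes of sterol sensing and uptake 1 rose, 0 fell and 10 did not pass. The one that rose was Srebf2, which encodes the SREBP2 factor itself, with a mean signal of 1075 ± 146 in IGF-1 arrays and 597 ± 18.2 in control arrays (log2 difference 0.82 ± 0.11, adjusted p = 0.0012). The median of that list was -0.08, but 0.18 under scaling to the spiked controls, where 4 of its genes were called higher. Under that scaling the median over all probe sets tested was 0.25, and 2750 of the 11313 probe sets were called higher. The lists were chosen with results of these data known and no list was tested as a set.

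**Figure D5:**
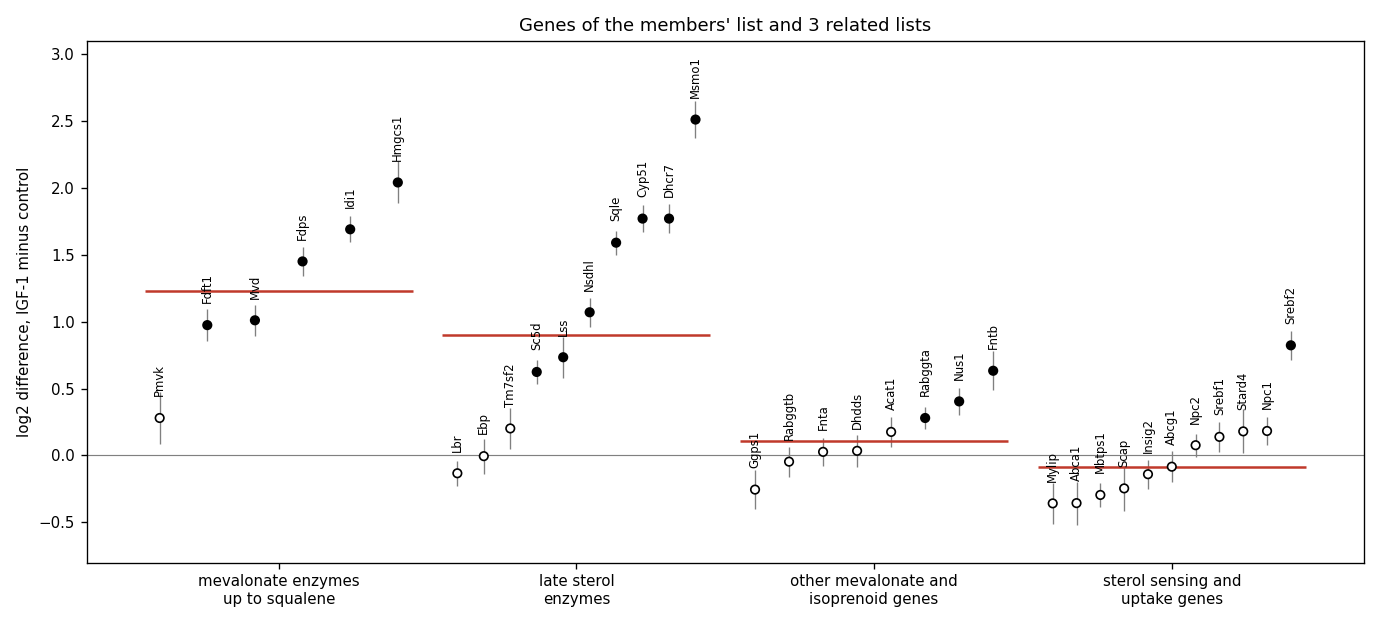
Log2 difference (IGF-1 minus control) of each tested gene, by its brightest probe set, in the members' list and 3 related lists; error bars are standard errors, filled points passed the test, open points did not, and red lines are list medians. Of the members 5 of 6 are filled, as are 7 of 10 late sterol enzymes, 3 of 8 other isoprenoid genes and 1 of 11 sterol sensing and uptake genes.

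Over the 6 arrays, the genes outside the members closest to the mean profile of the 6 tested members were sought by root mean square distance on the log2 scale, among 6889 genes. The nearest was Psph, the last enzyme of serine synthesis, at a distance of 0.10, with signals of 499.5 ± 38.4 in IGF-1 arrays and 212 ± 15.6 in control arrays. It was followed by Tle5 at 0.14, Bcar3 and Igsf8 at 0.16 each and Mmp19 at 0.18. Their log2 differences were 1.06 to 1.18, near the members' mean. That mean includes Pmvk (0.28) and was 1.19 to 1.35 on the IGF-1 arrays, between Mvd (1.01) and Fdps (1.45). The 5 genes thus lie near an average that no single member shows. The distance measures likeness in size and direction over these arrays alone.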

How the data were processed

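Transcript levels were measured with 1-colour Affymetrix arrays from total RNA, 3 arrays with IGF-1 and 3 without, grouped by their titles. Per the submitters' processing notes, the authors used GCOS and MAS5. The deposited table holds the resulting intensities on a linear scale, with no program version or scaling target named. Oligo-dT priming, per the labels' protocols, weights signal towards the 3′ end of transcripts.

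A pseudocount of 15.6, the 25th percentile over all signals, was added before taking log2, which understates changes of dim probe sets. The 64 control probe sets were left out, and the test took the 11313 probe sets with a 6-array mean over 53.6, the median of such means. limma 3.58.1 in R 4.3.3 (lmFit, eBayes with an intensity trend, two-sided) compared the groups, with Benjamini-Hochberg adjustment over all tested probe sets and a threshold of 0.05. The fit was tested on simulated data. Counts by gene use the brightest tested probe set. Log2 differences carry standard errors.

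Probe sets were named from the platform annotation: 20380 carried 1 symbol, 691 several and 1555 none. Promoter sequences are from RefSeq (GRCm38.p6), where 5 of 7 members matched. Members, lists and tests were chosen with earlier results of these data known. The text names all members, up to 6 called genes per related list by size of change, and the 5 genes nearest to the members' mean profile. Ggps1, Fnta, Dhdds, Rabggtb and the markers of other and plasma cells given with values were chosen after their values were seen. Neither labels nor file named a batch. Alternatives covered pseudocount, filter, normalization, eBayes settings, array weights, probe sets left out, the replicate number as a block and each array left out.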

Additional observations from a re-analysis of the deposited data

How the results depend on the processing

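The count of mevalonate enzyme genes called higher was 5 under all 19 alternatives run. The count of their probe sets called higher was 8 to 11 under 18 alternatives, and it was below 11 only where a stricter filter or the omission of cross-hybridizing designs removed probe sets. No log2 difference of a member probe set changed sign or its side of the threshold. Pmvk passed under none of its 17 alternatives (lowest and highest difference 0.09 and 0.52). With a replicate block in the model, 5 member genes and 11 probe sets were called, and over all probe sets 754 were higher and 978 lower. The numbers were not taken to pair the arrays: deviations of same-numbered arrays correlated at 0.12, -0.03 and 0.13, against -0.15 to 0.03 for arrays of unlike number, and IGF-1 2 did not correlate best with control 2. Over all probe sets, no filter gave 448 higher and 498 lower, and scaling to the hybridization controls 2750 and 246. With 1 array left out, higher calls ranged from 404 to 663 and lower calls from 497 to 785. Of the other isoprenoid genes, 1 was called higher without a filter and 0 to 2 with 1 array left out. Of the sterol sensing genes, 4 were higher with scaling to the hybridization controls. The cause was not tested. Low signal limits what can be said of Mvk and Pmvk.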
